A study of Mus musculus with 24 samples.

Results

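The cytosolic ribosomal protein genes were taken as all non-control probes whose gene name in the array files was Rpl or Rps with a number, together with Rplp0, Rplp1, Rplp2 and Rpsa. Kinases of the Rps6k family and pseudogene names were left out. The rule gave 83 genes, read by 171 probes, of 36413 gene names on the array. Of these, 30 encode proteins of the small subunit, 46 encode proteins of the large subunit and 7 are paralogs (Rps27l, Rpl22l1, Rpl7l1, Rpl3l, Rpl10l, Rpl39l and Rps4y2). A probe was tested where some group had it well above background in all its 3 arrays. This kept 168 of the probes and 82 of the genes. Rpl10l was not tested, as neither of its probes passed. RefSeq lists Rps4y2 under the symbol Rps4l, as a transcribed pseudogene, and Rps3a as Rps3a1.

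The study measured RNA of whole spleens on 24 one-colour arrays. BALB.K mice received total body irradiation of 300, 400 or 800 cGy and B10.BR mice received 300, 500 or 900 cGy, and spleens were taken 24 hours later. The 0 cGy groups of both strains were resting mice. Each of the 8 groups held 3 arrays and each array was a pool of 3 mice, so the spread is between pools and not between animals. No genotype other than the strain, and no age or sex, was given in the labels. Nothing in them says that the pools of a group came from separate litters or days, and p-values measure only the spread between these arrays.

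Ribosomal proteins bind ribosomal RNA in the nucleolus to form the small and large subunits, and are made in near equal numbers in growing cells. Their messages begin with a terminal oligopyrimidine tract, through which the mTOR pathway sets their translation. When ribosome assembly is disturbed, free Rpl5 and Rpl11 can bind Mdm2 and so stabilise p53, the transcription factor that also drives much of the response to ionising radiation. Rps27l, a paralog of Rps27, is itself a p53 target. In the spleen, dividing erythroid precursors and lymphocytes are rich in ribosomes, and they are among the cells most sensitive to radiation.

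The sequences of a few probes show what the arrays read. The probe of Rps7 lay at chr12:29319087-29319146 (mm9, minus strand) and that of Rpl12 spliced across chr2:32819082-32819298 (plus strand); these genes are shown because their falls were among the largest. The Rps27l probe, shown by its first 30 bases, is of the member whose rise was called at every dose, and lay within chr9:66795486-66797176 (plus strand). A probe of Rps27, not the one that represents the gene, is shown because the paralogs moved in opposite directions. The files place it at chr9:114891672-114891731 (minus strand) and place all 4 probes named Rps27 on chromosome 9, while RefSeq places the gene on chromosome 3.
Rps7: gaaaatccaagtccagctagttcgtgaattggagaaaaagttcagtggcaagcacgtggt
Rpl12: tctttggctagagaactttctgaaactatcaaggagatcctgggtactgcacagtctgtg
Rps27l: aaagccaggctcacagaaggctgttcattt
Rps27: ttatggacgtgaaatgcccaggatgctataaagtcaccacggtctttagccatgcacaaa
Of the 171 probes, 11 lay on a chromosome other than that of their gene, and they represent 5 of the genes. Ribosomal protein genes have many processed copies in the genome, and how much signal such copies gave was not tested.

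The starts of the genes were read from RefSeq (GRCm38.p6), with 15 bases on each side of the start and capitals for the longest run of C and T. Rpl12, Rps15 and Rps26 are shown as genes with large falls, and Rps27 and Rps27l as the paralog pair.
Rpl12, chr2:32961697-32961726, plus strand: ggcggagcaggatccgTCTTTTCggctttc
Rps15, chr10:80292416-80292445, plus strand: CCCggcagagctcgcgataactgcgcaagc
Rps26, chr10:128626492-128626521, minus strand: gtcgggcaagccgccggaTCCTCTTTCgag
Rps27, chr3:90213634-90213663, minus strand: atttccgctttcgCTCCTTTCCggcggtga
Rps27l, first of its listed starts, chr9:66946071-66946100, plus strand: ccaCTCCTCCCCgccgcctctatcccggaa
Within 20 bases of the listed start, on the strand of the gene, a C followed by at least 5 bases that were C or T occurred in 40 of the 61 members with a promoter entry (65.6%) and in 8859 of all 27025 entries (32.8%). In the 300 bases around the start, CCGGAAGT on either strand occurred in 12 of the 61 members (19.7%) and in 4.31% of all entries. These matches describe the listed windows only.

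The 24 arrays had a 75th percentile of probe intensity between 830.3 and 1234.9, and no spot was saturated. On 1 array, BALB.K 0 cGy replicate 2, a corner of 8 of 176 blocks was dim by more than 0.3 (log2), and by as much as 4.25; no other array had such a block. Of the member probes, 6 lay in that corner, among them those representing Rpl22, Rpl38, Rps13 and Rpl18, so BALB.K values of these genes are also given without it. With the corner left out, 59, 63 and 74 members fell in BALB.K and 69, 76 and 77 in B10.BR, against the counts given below. Markers of several cell types moved with dose in the same arrays. The summed signal of 12 B cell markers, as a percent of all signal, was 0.123 to 0.137 in BALB.K at 0 cGy and 0.0224 to 0.0235 at 800 cGy, and in B10.BR it was 0.152 to 0.16 at 0 cGy and 0.0311 to 0.0343 at 900 cGy. That of 12 macrophage markers went the other way, from 0.0674 to 0.0721 to 0.207 to 0.209 in BALB.K and from 0.0577 to 0.0697 to 0.221 to 0.244 in B10.BR. Markers of 10 erythroid genes went from 0.19 to 0.229 to 0.0174 to 0.02 in BALB.K and from 0.0524 to 0.0763 to 0.00363 to 0.00404 in B10.BR. Exocrine pancreas genes ranged from 0.000767 to 0.992 over the arrays. In B10.BR they ran from 0.000767 to 0.00341 at 0 cGy, 0.0557 to 0.708 at 300 cGy and 0.565 to 0.798 at 900 cGy. No B10.BR array at 300 or 900 cGy overlapped the 0 cGy arrays. In BALB.K the exocrine genes ran from 0.00502 to 0.134 at 0 cGy and 0.201 to 0.79 at 800 cGy, with no overlap. Exocrine level and dose cannot be told apart in these comparisons. Y-linked signal differed between arrays within the BALB.K 0, 300 and 400 cGy groups. It was 8.15e-06 to 0.00524 in BALB.K at 0 cGy and 0.00377 to 0.00432 at 800 cGy. In B10.BR at 0 cGy it was 0.00536 to 0.00579. The exocrine level and the Y-linked signal were fitted as covariates, with counts given below; the part of the B cell, macrophage and erythroid markers in the results was not tested. In whole spleen RNA, fewer cells of a type and less RNA per cell cannot be told apart.

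**Figure D1:**
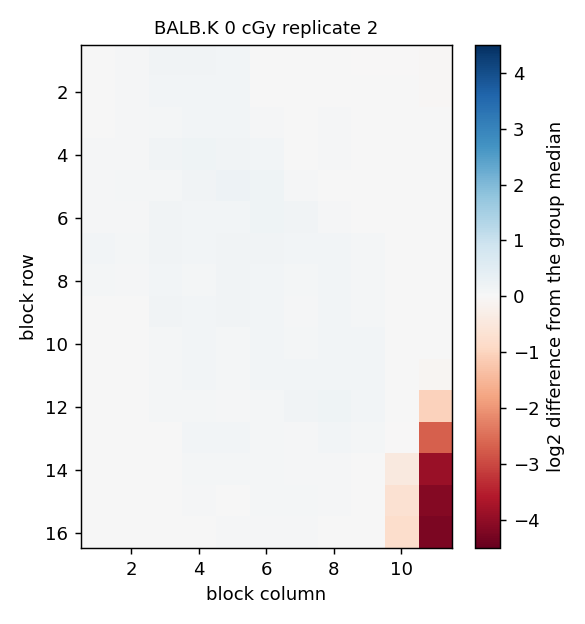
Map of the array of BALB.K 0 cGy replicate 2 in 176 blocks, coloured by the log2 difference of each block from the median of its group. The dim corner holds 8 blocks, down to -4.25.

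Ribosomal protein genes were lower after irradiation in both strains, and their median change was lower at the higher doses. In BALB.K, 58 of 82 genes fell at 300 cGy and 2 rose, with a median log2 change of -0.30; of all 29585 features tested 46.8% were called, 26.1% lower and 20.7% higher, with a median of -0.12. At 400 cGy, 60 fell and 2 rose, with a median of -0.35, beside 51.5% of all features called (26.0% lower and 25.6% higher) and a median of 0.01. At 800 cGy, 72 fell and 2 rose, with a median of -0.56, beside 58.4% of all features called (29.2% lower and 29.2% higher) and a median of 0.08. In B10.BR, 67 genes fell and 1 rose at 300 cGy, with a median of -0.39, beside 41.7% of all features called (23.0% lower and 18.7% higher) and a median of -0.07. At 500 cGy, 75 fell and 2 rose, with a median of -0.50, beside 48.8% of all features called (26.8% lower and 22.1% higher) and a median of -0.07. At 900 cGy, 75 fell and 1 rose, with a median of -0.66, beside 54.2% of all features called (28.4% lower and 25.8% higher) and a median of 0. Calls are adjusted p below 0.05 from limma, over all features of a comparison. The number of members whose arrays all lay below those of the 0 cGy group was 59, 68 and 73 of 82 in BALB.K and 65, 77 and 75 of 82 in B10.BR, beside 26.4%, 28.9% and 31.2% of all features in BALB.K and 28.9%, 32.9% and 33.1% in B10.BR.

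Of the 82 genes, 53 (64.6%) fell in all 6 comparisons against 0 cGy, beside 12.6% of all features. Rps27l was the 1 gene (1.22%) that rose in all 6, beside 12.7% of all features. Rpl3l, Rpl22 and Rpl38 (3.66%) were called in none, beside 20.7% of all features. With the dim corner of 1 BALB.K array left out, Rpl22 was called lower at all 3 BALB.K doses and Rpl38 in B10.BR at 900 cGy. The B10.BR values of Rpl22 in that refit are given below. The 3 comparisons of a strain share their 0 cGy arrays. The group mean was lower at each step of dose in both strains for 53 genes (64.6%), beside 10.1% of all features. This order rests on scaling: with spike-in scaling the member median turned to 0.09 from 300 to 400 cGy and 0.07 from 400 to 800 cGy in BALB.K, and with cyclic loess the first of these was 0. The per-array median of the 82 genes, against the mean of the 0 cGy group, lay from -0.1 to 0.11 in BALB.K at 0 cGy, -0.38 to -0.2 at 300 cGy, -0.41 to -0.32 at 400 cGy and -0.62 to -0.5 at 800 cGy. In B10.BR it lay from -0.09 to 0.09 at 0 cGy, -0.47 to -0.28 at 300 cGy, -0.54 to -0.45 at 500 cGy and -0.71 to -0.63 at 900 cGy. No irradiated array overlapped the 0 cGy arrays of its strain. As a share of all signal, the probes representing the genes held 5.79 ± 0.116% (SD, n = 3) at 0 cGy and 4.7 ± 0.0889% at 800 cGy in BALB.K, and 6.04 ± 0.159% at 0 cGy and 4.87 ± 0.0503% at 900 cGy in B10.BR. The exact permutation test gave p = 0.1 for each, the smallest that 3 arrays against 3 can give.

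**Figure D2:**
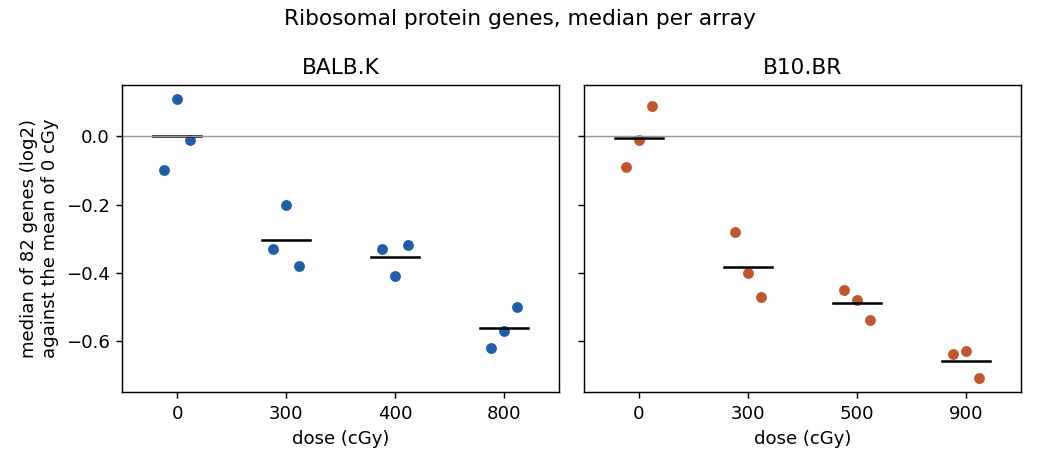
Median log2 level of the 82 ribosomal protein genes on each array against the mean of the 0 cGy arrays of its strain, by dose in cGy; points are arrays, 3 per group. The 0 cGy arrays lie from -0.1 to 0.11, and the 800 and 900 cGy arrays from -0.71 to -0.5.

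The number of called falls depended on the scaling of the arrays and on the fit. Over the alternatives the median stayed below 0 in each comparison against 0 cGy. Left-out arrays aside, it ran from -0.36 to -0.07 in BALB.K at 300 cGy and from -0.75 to -0.22 in B10.BR at 900 cGy. Less the median of all features in the same setting, it ran from -0.21 to -0.06 and from -0.71 to -0.22 there. The counts that follow are of members only. They are not set beside the share of all features called in the same setting. With quantile normalization, 2 genes rose and 10 fell in BALB.K at 300 cGy, and 4 rose and 26 fell at 400 cGy. With spike-in scaling, which in B10.BR moved the median of all features to 0.27, 0.25 and 0.39 at the 3 doses, 2 rose and 0 fell, 2 rose and 5 fell, and 3 rose and 15 fell there; in BALB.K it gave 1 rise and 6 falls, 2 and 8, and 3 and 10. Among the genes described below, Rps27, Rps6 and Rpl26 were called in none of the 6 comparisons with spike-in scaling, though each change stayed negative. With median scaling, 2 rose and 10 fell in BALB.K at 300 cGy. A fit of only the arrays compared gave 0 rises and 5 falls there and 0 and 37 at 400 cGy, and the slide as a block gave 2 and 37, and 1 and 39. Within the slide that held both groups, the member median was -0.33 in BALB.K at 300 cGy (1 array against 3), -0.39 in B10.BR at 300 cGy (3 against 3) and -0.46 in B10.BR at 500 cGy (2 against 3). For the other comparisons against 0 cGy, of BALB.K 400 and 800 cGy and B10.BR 900 cGy, no slide held both groups. Dose and slide cannot be told apart there. With the exocrine level as a covariate the falls numbered 53, 60, 71, 47, 75 and 73. The order is BALB.K 300, 400, 800 and B10.BR 300, 500, 900 cGy. With the Y-linked signal they numbered 58, 62, 71, 65, 75 and 75. In BALB.K at 800 cGy and in B10.BR at 300 and 900 cGy the exocrine level did not overlap that at 0 cGy. There the covariate cannot separate it from dose.

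The largest falls were of genes from both subunits. Rps7, a small subunit protein that can bind Mdm2, read 6.63, 7.01 and 6.77 (log2 level against the 75th percentile of the array) in BALB.K at 0 cGy, 6.07, 6.29 and 6.2 at 300 cGy, 6, 6.08 and 6.15 at 400 cGy and 5.76, 5.6 and 5.58 at 800 cGy. No irradiated array reached the lowest 0 cGy array. The change was -0.62, -0.73 and -1.16 at the 3 doses (SE 0.109), with adjusted p = 0.000136, 1.68e-05 and 3.83e-08 by limma. In B10.BR, Rps7 read 6.87, 6.85 and 6.9 at 0 cGy and 5.72, 5.79 and 5.95 at 900 cGy, a change of -1.06 (adjusted p = 1.37e-07, limma). The call at 500 cGy in B10.BR was lost with spike-in scaling (-0.55, adjusted p = 0.0923, limma).

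Rpl12, a protein at the base of the large subunit's stalk, read 7.75, 7.97 and 7.93 in BALB.K at 0 cGy, 7.41, 7.67 and 7.34 at 300 cGy, 7.28, 7.38 and 7.53 at 400 cGy and 6.87, 6.91 and 6.95 at 800 cGy. Its levels at 300, 400 and 800 cGy lay below the 0 cGy arrays. The change at 800 cGy was -0.97 (SE 0.114). In B10.BR its change was -0.54, -0.86 and -1.07 at 300, 500 and 900 cGy. Rps15 fell by 1.22 and Rps26, one of the genes mutated in Diamond-Blackfan anaemia, by 1.19 in B10.BR at 900 cGy. Rps15 read 6.57, 6.59 and 6.66 in B10.BR at 0 cGy and 5.34, 5.6 and 5.2 at 900 cGy, with no overlap. Rps26 read 6.41, 6.4 and 6.44 at 0 cGy and 5.03, 5.48 and 5.2 at 900 cGy, with no overlap either. Rpl30 fell by 1.09 and Rpl23a by 0.97 in the same comparison. In BALB.K at 800 cGy the changes were -0.85 for Rps15, -0.88 for Rps26, -0.98 for Rpl30 and -0.99 for Rpl23a, all called.

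**Figure D3:**
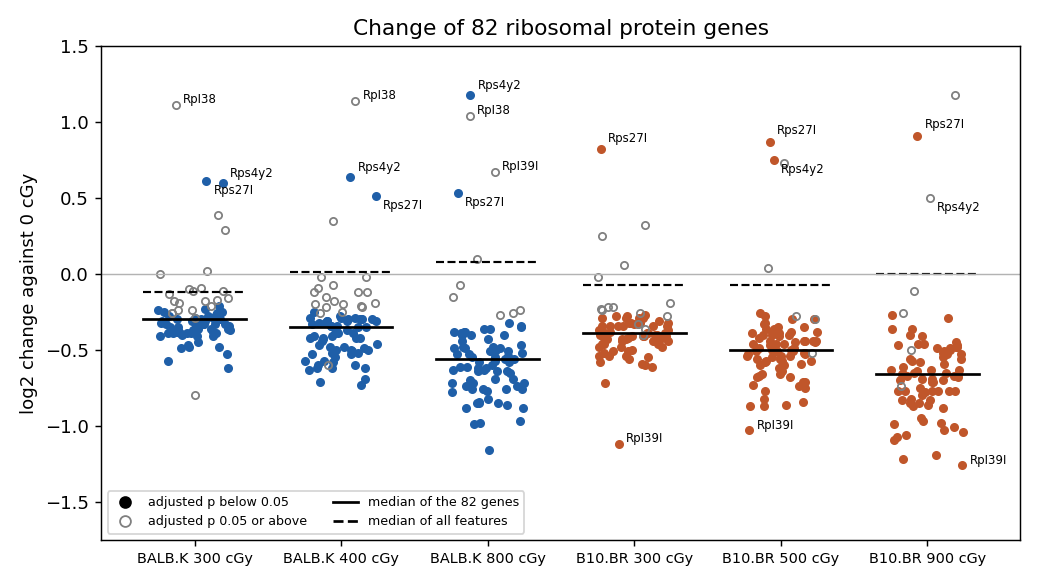
Change in log2 level of each of the 82 genes against 0 cGy, for the 3 irradiated groups of each strain; filled points have adjusted p below 0.05, open points 0.05 or above, solid bars mark the median of the 82 genes and dashed bars that of all features. Most points lie below 0, and Rps27l lies above 0 in all 6; the high Rpl38 points of BALB.K rest on the dim corner of 1 array.

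Of the 30 small subunit genes, 18, 20 and 28 fell in BALB.K and 23, 29 and 29 in B10.BR, beside 26.1%, 26.0% and 29.2% of all features called lower in BALB.K and 23.0%, 26.8% and 28.4% in B10.BR. Of the 46 large subunit genes, 40, 39 and 44 fell in BALB.K and 43, 44 and 44 in B10.BR. The medians were -0.57 and -0.61 for the small and the large subunit in BALB.K at 800 cGy, and -0.69 and -0.66 in B10.BR at 900 cGy. The 4 genes of the stalk (Rplp0, Rplp1, Rplp2 and Rpl12), which recruits elongation factors, fell in all but 1 of the 24 values; the exception was Rplp2 at 300 cGy in BALB.K (-0.24, adjusted p = 0.07, limma). Of 25 alternatives, the call of Rplp1 at 300 cGy in BALB.K was lost in 11 and its change reversed in 1, and that of Rplp2 at 400 cGy was lost in 8; at 300 cGy in B10.BR the calls of Rplp2 and Rplp0 were lost in 8 and 7 and each change reversed in 1. Rps6, the main substrate of S6 kinase, fell by 0.37, 0.41 and 0.6 in BALB.K and by 0.41, 0.56 and 0.71 in B10.BR. Rpl13a fell by 0.37, 0.55 and 0.78 in BALB.K and by 0.39, 0.51 and 0.71 in B10.BR. Rpl10, a late assembly protein of the large subunit, fell by 0.4 at 800 cGy and by 0.47 at 900 cGy. Over the 76 genes other than paralogs, level and change correlated at r = 0.186 to 0.365 over the 6 comparisons, a description of genes that share arrays; the 38 dimmer genes had a median of -0.72 at 800 cGy in BALB.K and -0.79 at 900 cGy in B10.BR, and the 38 brighter genes -0.5 and -0.53.

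Of the 7 genes whose proteins bind Mdm2, 5, 5 and 7 fell in BALB.K and 6, 7 and 6 in B10.BR, and none rose, beside 26.1%, 26.0% and 29.2% of all features called lower in BALB.K and 23.0%, 26.8% and 28.4% in B10.BR. Rpl5 read 6.88, 7.03 and 6.98 in BALB.K at 0 cGy, 6.4, 6.6 and 6.42 at 300 cGy, 6.24, 6.25 and 6.29 at 400 cGy and 6.19, 6.07 and 6.07 at 800 cGy, so no irradiated array overlapped the resting ones. Its changes were -0.49, -0.71 and -0.85 in BALB.K and -0.42, -0.67 and -0.8 in B10.BR; with spike-in scaling the B10.BR calls were lost (-0.08, -0.35 and -0.42), as were those in BALB.K at 300 and 800 cGy (-0.55 and -0.47). Rpl11, which binds Mdm2 with Rpl5, changed on its brightest probe by -0.09 and -0.02 at 300 and 400 cGy in BALB.K (adjusted p = 0.414 and 0.875, limma) and fell by 0.32 at 800 cGy (adjusted p = 0.00207, limma). With quantile normalization its change at 400 cGy was 0.19 (adjusted p = 0.0238, limma), and with cyclic loess 0.22. Its other 2 probes, fitted as features of their own, were called lower at all 3 doses in BALB.K, by 0.35, 0.47 and 0.62 and by 0.36, 0.46 and 0.63, and the mean of the gene's probes was called at 300 cGy (-0.26, adjusted p = 0.0115) and 400 cGy (-0.32, adjusted p = 0.00296, limma). In B10.BR Rpl11 fell by 0.34, 0.44 and 0.48. Rpl26, which also binds the p53 message, fell by 0.38, 0.48 and 0.74 in BALB.K and by 0.43, 0.6 and 0.7 in B10.BR. Rpl23 fell by 0.39, 0.37 and 0.51 in BALB.K and by 0.38, 0.46 and 0.53 in B10.BR. Of 25 alternatives, its calls were lost in 6, 7 and 3 in BALB.K and in 8, 3 and 4 in B10.BR, though each change stayed negative. Of 18 genes mutated in Diamond-Blackfan anaemia, a failure of red cell production, 12, 13 and 18 fell in BALB.K and 15, 17 and 18 in B10.BR, against the same background. Rps19, the most often mutated of these, changed by -0.1 and -0.15 at 300 and 400 cGy and fell by 0.4 at 800 cGy (adjusted p = 0.0278, limma) in BALB.K; in B10.BR it changed by -0.02 and -0.28 and fell by 0.65 at 900 cGy (adjusted p = 0.000964, limma). The call at 800 cGy was lost in 10 of 25 alternatives, among them without BALB.K 0 cGy replicate 2 (-0.29, adjusted p = 0.129), 800 cGy replicate 2 (-0.38, adjusted p = 0.0712) or 800 cGy replicate 3 (-0.39, adjusted p = 0.0603, limma), and that at 900 cGy with spike-in scaling (-0.26, adjusted p = 0.47, limma). Rps14 changed by -0.16, -0.12 and -0.36 in BALB.K and by -0.23, -0.3 and -0.26 in B10.BR.

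Of the 6 paralogs tested, 2 rose at each dose in BALB.K and 1, 2 and 1 rose in B10.BR; 0, 1 and 0 fell in BALB.K and 1, 2 and 2 fell in B10.BR. Of all features, 20.7%, 25.6% and 29.2% were called higher in BALB.K and 18.7%, 22.1% and 25.8% in B10.BR. The shares called lower were 26.1%, 26.0% and 29.2% in BALB.K and 23.0%, 26.8% and 28.4% in B10.BR. With 6 genes, counts of 0 to 2 are not far from these shares. Rps27l read 4.46, 5.06 and 4.89 in BALB.K at 0 cGy, 5.31, 5.55 and 5.4 at 300 cGy, 5.33, 5.26 and 5.34 at 400 cGy and 5.38, 5.3 and 5.31 at 800 cGy. Every irradiated array was above the highest 0 cGy array. In B10.BR it read 4.73, 4.63 and 4.68 at 0 cGy, 5.5, 5.48 and 5.51 at 300 cGy, 5.54, 5.57 and 5.55 at 500 cGy and 5.62, 5.55 and 5.62 at 900 cGy. Its change was 0.61, 0.51 and 0.53 in BALB.K and 0.82, 0.87 and 0.91 in B10.BR (SE 0.106), with adjusted p from 6.29e-07 to 0.000567 (limma). In BALB.K, its calls at 300 and 400 cGy were lost in a fit of only the arrays compared (adjusted p = 0.0574 and 0.0566, limma), and with the slide as a block at 400 and 800 cGy (0.34, adjusted p = 0.182, and 0.36, adjusted p = 0.144, limma). Rps27, whose protein is nearly that of Rps27l, fell by 0.25, 0.42 and 0.7 in BALB.K and by 0.42, 0.54 and 0.75 in B10.BR (SE 0.0856). Its call at 300 cGy in BALB.K was lost in 10 of 25 alternatives, over all of which the change ran from -0.31 to -0.06; the 10 included the fits without BALB.K 0 cGy replicate 1 (adjusted p = 0.05) or 3 (0.0514) and without 300 cGy replicate 1 (0.0532) or 3 (0.0925, limma).

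Rpl39l, a paralog of Rpl39 known from testis, read -3.6, -4.37 and -4.43 in BALB.K at 0 cGy and -0.01, -0.56 and -0.81 in B10.BR at 0 cGy. In B10.BR it read -1.6, -1.54 and -1.59 at 300 cGy, -1.95, -1.6 and -0.91 at 500 cGy and -2.18, -1.25 and -1.73 at 900 cGy, all below the resting arrays. The fall was 1.12, 1.03 and 1.26 (SE 0.336; adjusted p = 0.0117, 0.0164 and 0.00364, limma). All 3 calls were lost with spike-in scaling (adjusted p = 0.173, 0.201 and 0.0835, limma), the call at 300 cGy without B10.BR 0 cGy replicate 1 (-0.89, adjusted p = 0.0645) and that at 500 cGy without 0 cGy replicate 1 (-0.8, adjusted p = 0.0863) or without 500 cGy replicate 1 (-0.79, adjusted p = 0.091, limma). In BALB.K it changed by 0.29, -0.09 and 0.67, none called.

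Rps4y2 read -0.24, 0.17 and 0.52 in BALB.K at 0 cGy and 1.37, 1.46 and 1.17 at 800 cGy, with no overlap, a rise of 1.18 (SE 0.218, adjusted p = 0.000122, limma). At 300 and 400 cGy it read 1.02, 0.79 and 0.44, and 0.9, 0.48 and 1.01; these overlapped the resting arrays, and the rises of 0.6 and 0.64 (adjusted p = 0.031 and 0.0189, limma) were lost in several alternatives, such as without BALB.K 0 cGy replicate 1 (0.4, adjusted p = 0.152, and 0.45, adjusted p = 0.111, limma). In B10.BR it changed by 0.32, 0.75 and 0.5, called at 500 cGy (adjusted p = 0.0075, limma) and lost there without B10.BR 500 cGy replicate 1 (0.57, adjusted p = 0.0544). Rpl22l1 fell in B10.BR at 900 cGy by 0.69 (adjusted p = 0.00103, limma) and at 500 cGy by 0.39 (adjusted p = 0.0466, limma), the latter a call lost in 15 of 25 alternatives. Rpl7l1 fell by 0.43 in BALB.K at 400 cGy (adjusted p = 0.0103, limma) and passed no other test against 0 cGy. Rpl3l, a striated muscle paralog, was well above background on 12 arrays and was called in no comparison against 0 cGy.

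The BALB.K values of Rpl22, Rpl38 and Rps13 rested on the dim corner of BALB.K 0 cGy replicate 2. Rpl22, a large subunit protein needed by developing T cells, read 7.23, 4.68 and 7.54 in BALB.K at 0 cGy; with the corner left out its falls were 0.51, 0.55 and 0.8 (adjusted p = 0.00944, 0.00469 and 0.000157, limma), against uncalled positive changes with it. In B10.BR, whose arrays had no such block, the falls were 0.4, 0.52 and 0.74 in the same refit. The second, dimmer probe of Rpl22 went the other way in BALB.K, with group means of 2.56, 2.66, 2.69 and 2.99 and a called rise at 800 cGy (0.42, adjusted p = 0.00536, limma), so the probes of Rpl22 disagree there. Rpl38, which guides translation of Hox messages in the embryo, read 7.53, 3.75 and 7.74 in BALB.K at 0 cGy, and with the corner left out its changes of -0.18, -0.16 and -0.26 were not called, while in B10.BR at 900 cGy it fell by 0.5 (adjusted p = 0.00175, limma). Rps13 changed by 0.02, -0.07 and -0.26 in BALB.K with the corner and by -0.28, -0.38 and -0.56 without it, the last 2 called. Rpl18 changed by -0.28, -0.29 and -0.53 with it and by -0.27, -0.27 and -0.51 without it, called in both.

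Rps24 was read by 3 probes that did not move together. They are shown by the first 30 bases or, for NM_207634, whole. Capitals mark TGA, the first stop triplet read from the first base of the probe, for NM_011297 only. The NM_207634 probe also holds TGA in that reading, at bases 10 to 12, left in lower case.
Rps24, NM_011297: aatgttggtgctggcaaaaagTGAgtggag
Rps24, NM_207634: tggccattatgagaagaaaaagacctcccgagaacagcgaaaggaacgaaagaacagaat
Rps24, NM_207635: ttgatgttttgctgtgatgtgcagatttct
On chromosome 14 (mm9, plus strand) they lay within chr14:25312695-25315015, chr14:25311190-25312666 and chr14:25315021-25315080. Whether TGA is read in frame in the transcript was not tested. The NM_011297 probe read 5.92, 5.91 and 6.11 in BALB.K at 0 cGy, 6.79, 6.72 and 6.58 at 300 cGy, 6.81, 6.66 and 6.66 at 400 cGy and 6.71, 6.71 and 6.74 at 800 cGy. Each irradiated array lay above the resting ones, and in B10.BR it read 6.43, 6.34 and 6.5 at 0 cGy and 6.93, 7.07 and 6.78 at 900 cGy. Its change was 0.72, 0.73 and 0.74 in BALB.K and 0.32, 0.55 and 0.5 in B10.BR (SE 0.103), called in all 6. At 300 cGy in B10.BR it was not called with median scaling (0.27, adjusted p = 0.0677, limma), and it was positive under all 5 scalings in all comparisons.

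The NM_207634 probe read 6.19, 6.34 and 6.37 in BALB.K at 0 cGy and 5.61, 5.66 and 5.73 at 800 cGy, and in B10.BR 6.51, 6.77 and 6.87 at 0 cGy and 5.79, 6 and 5.6 at 900 cGy. It changed by -0.29 (adjusted p = 0.0556, limma), -0.35 and -0.63 in BALB.K and by -0.52, -0.67 and -0.92 in B10.BR. The NM_207635 probe, the one with the highest mean and so the value of the gene above, changed by -0.18, -0.22 and -0.4 in BALB.K and by -0.22, -0.3 and -0.29 in B10.BR. The difference of the first 2 probes within an array changed by 1.01, 1.08 and 1.37 in BALB.K and by 0.84, 1.21 and 1.42 in B10.BR. The groups did not overlap, and the exact permutation test gave p = 0.1 in each. These probes are described because they were called in opposite directions in the same arrays. Their difference is therefore a description and no further test. Rps3 at 800 cGy in BALB.K also had probes called in opposite directions: its second probe rose by 0.49 (adjusted p = 0.0123, limma) while the first fell.

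**Figure D4:**
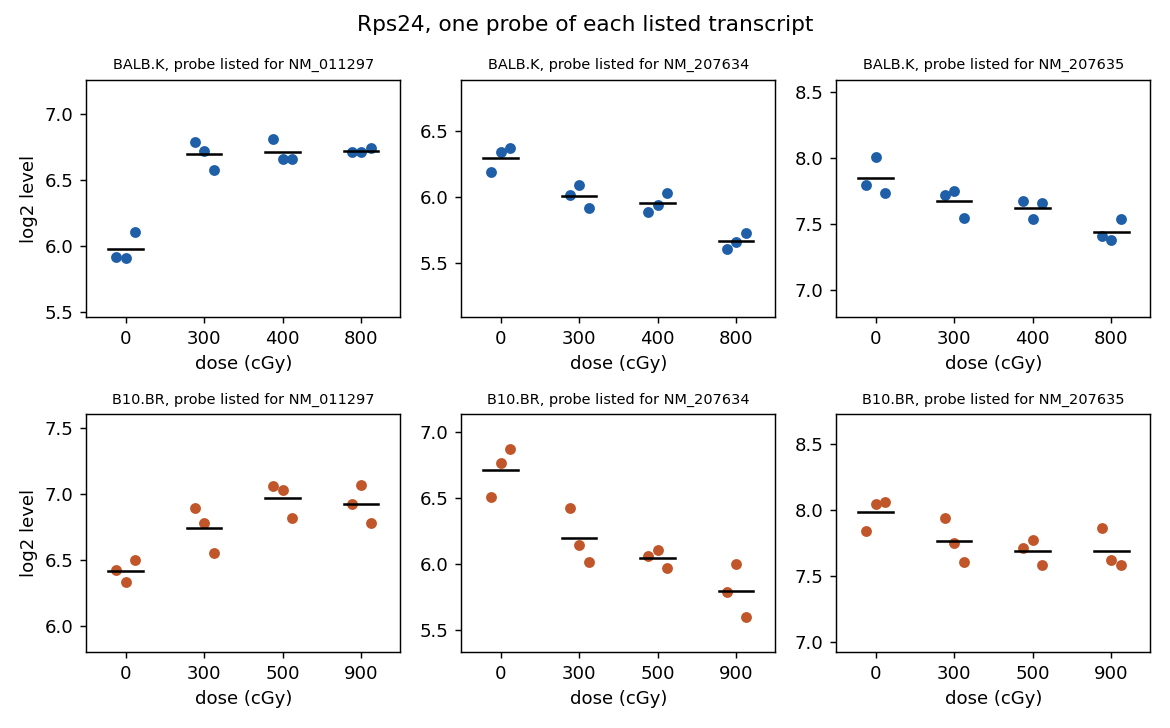
Log2 level of the 3 Rps24 probes on each array by dose in cGy for BALB.K and B10.BR, against the 75th percentile of each array; points are arrays, 3 per group. The NM_011297 probe is higher at every irradiated dose and the NM_207634 probe is lower.

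Between successive doses, each member that was called was lower. In BALB.K, none was called from 300 to 400 cGy (median -0.06), beside 4.74% of all features (3.14% higher and 1.60% lower), while median scaling called 39 lower (median -0.28); 20 fell from 400 to 800 cGy (median -0.22), beside 18.6% of all features called (8.64% higher and 9.97% lower). These included Rpl12 (-0.49, SE 0.114, adjusted p = 0.0067), Rps7 (-0.42, adjusted p = 0.0114), Rpl23a (-0.39) and Rpl19 (-0.39), all by limma; all 4 calls were lost with spike-in scaling. The count was 11 and 7 without BALB.K 400 cGy replicate 2 or 3, and 10, 10 and 12 without 800 cGy replicate 1, 2 or 3. In B10.BR, none was called from 300 to 500 cGy (median -0.10), beside 1.60% of all features (0.669% higher and 0.926% lower), and 4 fell from 500 to 900 cGy (median -0.15), beside 4.60% called (1.34% higher and 3.26% lower). These were Rpl30 (-0.36), Rpl18 (-0.36), Rpl39 (-0.32) and Rps3 (-0.29), with adjusted p from 0.0269 to 0.0435 by limma. They are 4.88% of the members, near the 4.60% of all features, so the count does not set the members apart. The count was 1, 0 and 1 without B10.BR 500 cGy replicate 1, 2 or 3, and 0, 8 and 0 without 900 cGy replicate 1, 2 or 3.

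At 0 cGy, 30 members were higher in B10.BR than in BALB.K and 3 were lower, with a median of 0.17; of all features 53.4% were called, 22.7% higher and 30.7% lower, with a median of -0.10. The direction rests on scaling: with median scaling 73 were higher and 1 lower, and with spike-in scaling 2 were higher and 55 lower. The B10.BR arrays at 0 cGy were all on slide 1 and the BALB.K arrays all on slide 2, so strains and slides differ together here. With the slide as a block 5 members were called. Y-linked signal differed as well, at 0.00536 to 0.00579% of all signal in B10.BR and 8.15e-06 to 0.00524% in BALB.K. Rpl39l differed most, at 3.67 (SE 0.336, adjusted p = 8.22e-08, limma; 12.7-fold), and lay between 2.64 and 4.54 over the alternatives, called in each. Rps4y2 was higher by 2.16 (SE 0.218, adjusted p = 2.76e-07, limma; 4.46-fold). Rpl38 and Rpl22, at 1.64 and 1.27, held the dim corner of 1 BALB.K array and were 0.35 and 0.36 without it (adjusted p = 0.0399 and 0.0497, limma). Rpl21 was lower by 1.28 on its brighter probe, at 0.16, 0.36 and 0.44 in BALB.K and -0.84, -1.06 and -0.97 in B10.BR. Its second probe went the other way, at -2, -2.01 and -1.94 in BALB.K and -0.01, -0.29 and -0.12 in B10.BR, and the mean of the probes was 0.28 higher in B10.BR (adjusted p = 0.0165, limma). Rpl28 was lower by 0.42. Rpl3l was at least 1.94-fold higher in BALB.K (adjusted p = 0.0393, limma), as it was not well above background on any B10.BR array at 0 cGy; the call was lost in several alternatives.

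The falls were compared between strains as described values over the 82 genes. At 300 cGy 56 genes fell in both strains, 96.6% of the 58 of BALB.K and 83.6% of the 67 of B10.BR. At 400 and 500 cGy it was 59, or 98.3% and 78.7%, and at 800 and 900 cGy it was 71, or 98.6% and 94.7%; these doses differ. Of all features that fell, the shared share was 56.1% of those of BALB.K and 63.4% of those of B10.BR at 300 cGy, 69.8% and 67.7% at 400 and 500 cGy, and 76.1% and 78.2% at 800 and 900 cGy. The Pearson correlation of the changes over the 82 genes was 0.341, 0.491 and 0.533, and Spearman's was 0.481, 0.537 and 0.697. These correlations and the shared counts keep the dim corner, on which the BALB.K changes of Rpl22, Rpl38 and Rps13 rest. Rpl38 in BALB.K at 300 cGy, for example, changed by 1.11 with the corner and by -0.18 without it. The correlations were not computed without the corner. Where the strains were tested against each other, no member differed in its change at 300 cGy, beside 10.9% of all features (6.03% higher and 4.87% lower). There Rpl39l had a difference of -1.4 (adjusted p = 0.0658) and Rpl18 one of -0.22 (adjusted p = 0.281, limma). At the highest doses, 900 and 800 cGy, 2 members differed, beside 12.7% of all features called (6.82% higher and 5.93% lower): Rpl39l by -1.93 (SE 0.475, adjusted p = 0.0123) and Rpl18 by -0.51 (SE 0.126, adjusted p = 0.0126, limma).

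Genes that work with the ribosome were set beside the members. Of all features, 26.1%, 26.0% and 29.2% were called lower in BALB.K and 23.0%, 26.8% and 28.4% in B10.BR. Of 45 ribosome biogenesis genes, 32, 37 and 34 fell in BALB.K and 35, 37 and 40 in B10.BR, with medians of -0.39, -0.65 and -0.85 in BALB.K and -0.48, -0.62 and -0.85 in B10.BR. Nop58, a core protein of box C/D ribonucleoproteins, fell by 1.75 in BALB.K at 800 cGy and by 1.33 in B10.BR at 900 cGy, and Dkc1, the pseudouridine synthase, by 2.23 and 1.56. At most 1 biogenesis gene rose in any of these comparisons. Of 19 genes of RNA polymerase I, 10, 14 and 12 fell in BALB.K and 13, 14 and 15 in B10.BR, among them Polr1b by 1.11 at 800 cGy, and 0 rose. Of 17 elongation factors and other messages with an oligopyrimidine tract, 12, 13 and 15 fell in BALB.K and 13, 15 and 15 in B10.BR; Pabpc1 fell by 1.75 at 800 cGy and by 1.13 at 900 cGy, and 1 gene of this list rose at each dose. Of 39 genes of initiation factors and their binding proteins, among them Eif4ebp2, 24, 27 and 23 fell in BALB.K and 16, 21 and 25 in B10.BR. Of the same 39, 2, 1 and 2 rose in BALB.K and 0, 2 and 2 in B10.BR. Of 75 mitochondrial ribosomal proteins tested, 35, 50 and 47 fell in BALB.K and 27, 28 and 48 in B10.BR, with medians of -0.41 at 800 cGy and -0.32 at 900 cGy; 1, 1 and 3 rose in BALB.K and 1, 3 and 2 in B10.BR. The 21 proliferation genes tested all fell in each comparison against 0 cGy.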

How the data were processed

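The 24 one-colour Agilent arrays were read from the deposited scanner files. Per the file headers, Agilent Feature Extraction gave the intensity of each spot (gProcessedSignal), already background-corrected; the submitters' processing notes name version 10.5.1.1. The deposited log2 values of the authors' matrix, used as an alternative, correlated with the scanner values at 1 on every array; BALB.K columns were centred per probe, the baseline of the B10.BR columns is not known, and column medians ran from -0.118 to 0.175. Here log2 intensity less the 75th percentile of the array was taken, marked spots were left out, spots of a probe were averaged, and a gene was read by its kept probe with the highest mean. Group means over all 24 arrays were fitted with limma 3.58.1 in R 4.3.3 and adjusted by Benjamini-Hochberg over the 29585 features of each of 13 comparisons. A fixed list of genes and the 4 largest called changes in each direction were named. The members and gene lists were chosen with earlier results of these data known. Gene models and promoters are from RefSeq; mm9 positions are those of the files. Alternatives were other scalings, filters, probe rules, slides, covariates and left-out arrays; a left-out dim corner and cyclic loess were added after seeing the data. All 3 correlations of same-numbered replicates were over 0.1 only between B10.BR 500 and 900 cGy (0.206, 0.121 and 0.24), and the block gave 5 falls there in place of 4. Depth is limited by 3 arrays per group.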

Additional observations from a re-analysis of the deposited data

Results flagged for a closer look

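The change of Rpl39l at the highest doses differed between strains by -1.93 (B10.BR at 900 cGy less BALB.K at 800 cGy; adjusted p = 0.0123, limma), with arrays of B10.BR lower and those of BALB.K not called; with spike-in scaling the adjusted p was 0.0899, and with the slide as a block the difference was -3.05 (adjusted p = 0.0809, limma). That of Rpl18 differed by -0.51 (adjusted p = 0.0126, limma), and was -0.28 with the slide as a block (adjusted p = 0.646), -0.45 with the slide as a random block (adjusted p = 0.104) and not called with spike-in scaling (adjusted p = 0.38, limma). The doses differ as well as the strains, and these cannot be told apart.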

How the results depend on the processing

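The direction of the member median against 0 cGy was negative under every alternative run in all 6 comparisons, while the number of called members was not stable. Counts are members called, in the order BALB.K 300, 400 and 800 and B10.BR 300, 500 and 900 cGy against 0 cGy. The share of all features called in each alternative is not given beside them. Quantile normalization gave 12, 30, 43, 17, 37 and 48, with 10 from 400 to 800 cGy in BALB.K, 1 from 500 to 900 cGy in B10.BR and 1 for the strain difference at 300 cGy. Spike-in scaling gave 7, 10, 13, 2, 7 and 18, with 1 and 0 for the same dose steps, 57 between the strains at 0 cGy and 0 for the strain difference at the highest doses. Median scaling gave 12 for BALB.K at 300 cGy, 39 from 300 to 400 cGy, 14 from 500 to 900 cGy, 74 between the strains at 0 cGy and 14 for the strain difference at 300 cGy. Cyclic loess gave 38 and 40 for BALB.K at 300 and 400 cGy, 24 for B10.BR at 300 cGy, 0 from 500 to 900 cGy and 1 for the strain difference at 300 cGy. A fit of only the arrays compared gave 5 and 37 for BALB.K at 300 and 400 cGy, 0 from 500 to 900 cGy and 16 between the strains at 0 cGy. The slide as a block gave 39 and 40 for BALB.K at 300 and 400 cGy, 2 from 300 to 500 cGy and 0 from 500 to 900 cGy in B10.BR, 5 between the strains at 0 cGy and 1 at the highest doses; as a random block it gave 0 from 500 to 900 cGy and 1 at the highest doses. From 400 to 800 cGy the exocrine covariate gave 12, the Y-linked covariate 7 and the authors' deposited matrix 5, and from 500 to 900 cGy they gave 0, 7 and 1; both covariates gave 1 for the strain difference at 300 cGy. From 500 to 900 cGy, no filter, the mean of a gene's probes and every probe as its own feature gave 2 each. The mean of probes gave 1 from 300 to 400 cGy, and normexp gave 1 for the strain difference at 300 cGy. Leaving out 1 array gave 40 to 62, 50 to 66, 72 to 77, 56 to 71, 68 to 75 and 74 to 78 against 0 cGy, 7 to 15 from 400 to 800 cGy, 0 to 2 from 300 to 500 cGy, 0 to 8 from 500 to 900 cGy, 22 to 38 between the strains at 0 cGy, 0 to 2 for the strain difference at 300 cGy and 2 to 3 at the highest doses. With the replicate block the counts were 59, 63, 75, 65, 75 and 76 against 0 cGy, 20 and 5 for the dose steps that had calls, 30 between the strains at 0 cGy and 2 at the highest doses; each was within 1.5 times the count without the block.

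Of the named genes, 34 values reversed. With quantile normalization these were Rplp1 0.04 and Rpl3 0.01 in BALB.K at 300 cGy, Rpl11 0.19 and Rplp1 0.01 at 400 cGy, Rpl11 0.07, Rps14 0.04, Rpsa 0.02 and Rpl10 0.01 at 800 cGy, and in B10.BR Rpsa 0.02 at 300 cGy, Rps14 0.05, Rpsa 0.01 and Rpl10 0.06 at 500 cGy and Rpsa 0.04 at 900 cGy. With spike-in scaling they were Rpl11 0.05 and Rps14 0.02 in BALB.K at 800 cGy, and in B10.BR Rpsa 0.06, Rplp0 0.02, Rplp2 0.02 and Rpl10 0.01 at 300 cGy, Rps14 0.02 and Rpl10 0 at 500 cGy and Rpsa 0.03 at 900 cGy. With cyclic loess they were Rpl11 0.22 in BALB.K at 400 cGy, and in B10.BR Rps14 0 at 500 cGy and Rps14 0.2, Rpsa 0.09 and Rplp2 0.01 at 900 cGy. The mean of probes turned Rpl21 at 0 cGy to 0.28. The cause of these was not tested. Rpl22 in BALB.K was -0.51, -0.55 and -0.8 without the dim corner or its array, and reached 0.92, 0.88 and 0.63 without BALB.K 0 cGy replicate 3. Precision is limited by 3 arrays per group.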
